A study of Mus musculus with 6 samples.

Results

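The matricellular proteins are secreted proteins that sit in the extracellular matrix and act on cells and on collagen rather than serving as its main structural fibres, and fibronectin is the adhesive glycoprotein whose fibrils many of them bind. The 10 genes described here encode periostin (Postn), SPARC (Sparc), thrombospondins (Thbs1, Thbs2 and Thbs3), tenascins (Tnc and Tnn), the SPARC-related modular calcium-binding proteins (Smoc1 and Smoc2) and fibronectin (Fn1). They were taken by gene name from the 54532 genes of the deposited tables, and all 10 passed the filter on low counts that left 14624 genes for testing. The RNA came from wild-type primary mouse bone marrow mesenchymal stem cells (mBMSCs), grown for 7 days in osteogenic induction medium with dexamethasone at 100 nM, ascorbic acid at 50 μg/mL and β-glycerophosphate at 10 mM by the labels. The Ni group (3 libraries) received 0.1 μM nickel ions throughout, and the control group (Con, 3 libraries) had the same medium without them. The methods of the study name a lower dexamethasone concentration, and neither source gives the age or strain of the mice or says whether replicate cultures came from separate ones, so the p-values measure the spread between these cultures.

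Osteoblasts lay down a matrix of type I collagen together with SPARC, fibronectin, periostin and thrombospondins. SPARC, also called osteonectin, binds collagen and calcium and is a major non-collagenous protein of bone. Fibronectin is assembled into fibrils through integrins and provides an early scaffold on which other matrix proteins are deposited, while thrombospondins and tenascins tune how firmly cells attach. Periostin is abundant in periosteum and periodontal ligament.

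The libraries held between 16101033 and 18642504 counts. Over log2 CPM (counts scaled to a common library size) of all tested genes, control replicate 3 lay at a mean distance (1 minus Pearson's r) of 0.0131 from the Ni libraries and 0.0220 from the other controls. The fold changes of the 10 genes and the gene lists are therefore also given without it. Leaving out the control most like the Ni libraries tends to widen differences between the groups, so the values and adjusted p-values without it give no independent support. The group of control replicate 3 was taken from the labels, and the values give no independent check of that label, on which each difference between Ni and control below rests. Stromal genes were expressed: Pdgfra averaged 6.54 and Pdgfrb 16.8 FPKM (the count scaled by gene length and library depth) in controls. Macrophage markers were abundant, with Adgre1 at 1028, Cd68 at 256 and Csf1r at 378 FPKM in controls, so the cultures were mixed, and in bulk RNA more cells of a type cannot be told apart from more RNA per cell. The 20 macrophage markers took 2.87% to 3.34% of counts in controls and 2.85% to 2.88% in Ni libraries. The 14 osteoblast markers took 1.39% to 2.63% in controls and 3.00% to 3.92% in Ni libraries.

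Sequence features that the choice of genes did not use set some of them apart. In 1 coding transcript per gene (GENCODE M21, GRCm38), codons for arginine, glycine and aspartate in a row, the integrin-binding RGD motif, occurred in frame in Fn1, Thbs1, Thbs2 and Tnn, and in none of the other 6 genes. The share of all coding sequences with such codons was not counted, and integrin binding at these sites was not measured. Codons for the KRFK motif, by which thrombospondin 1 activates latent TGF-β, occurred in Thbs1 alone of the 10. The stretches are shown because they mark which of the 10 genes could encode a ligand of this kind in the transcript searched. Which transcripts of a gene were expressed was not examined. Motif codons are in capitals, 5′ to 3′ on the coding strand.
Fn1, coding exon 30, codon 1614, minus strand of chr1:71606728-71606772: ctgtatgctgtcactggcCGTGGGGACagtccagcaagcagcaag
Tnn, coding exon 5, codon 427, minus strand of chr1:160139268-160139312: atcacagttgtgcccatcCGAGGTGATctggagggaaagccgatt
Thbs1, coding exon 17, codon 927, plus strand of chr2:118122671-118122908 with an intron between: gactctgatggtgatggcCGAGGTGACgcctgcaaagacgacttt
Thbs2, coding exon 17, codon 928, minus strand of chr17:14671466-14673153 with an intron between: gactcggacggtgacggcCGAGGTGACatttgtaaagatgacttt
Thbs1, KRFK codons, coding exon 7, codon 431, plus strand of chr2:118117633-118118184 with an intron between: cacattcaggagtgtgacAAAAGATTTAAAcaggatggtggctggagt
The Thbs1 and Thbs2 stretches around RGD had 37 of 45 bases in common. Fn1 held a further RGD at codon 2181.

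The levels spanned a wide range, with Sparc first. Mean FPKM in controls was 580 for Sparc, 280 for Fn1, 199 for Thbs1, 76.0 for Thbs2, 49.9 for Tnc, 26.3 for Tnn, 22.7 for Postn, 9.88 for Smoc1, 3.34 for Smoc2 and 1.65 for Thbs3. Sparc ranked 49 and Fn1 139 among the 14624 tested genes by this measure, whereas Thbs3 ranked 10650. Each gene exceeded the next in that order in 6 of 6 libraries, except that Tnn exceeded Postn in 4. The control ranges overlapped between Fn1 and Thbs1, Thbs2 and Tnc, Tnc and Tnn, and Tnn and Postn, and the Ni ranges between Tnc and Tnn and between Tnn and Postn. Together the 10 genes took 0.667%, 0.650% and 1.11% of counts in the controls, in replicate order, and 1.44%, 1.17% and 1.46% in the Ni libraries, so every Ni library was above every control (exact permutation test not below p = 0.1 with 3 against 3).

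**Figure D1:**
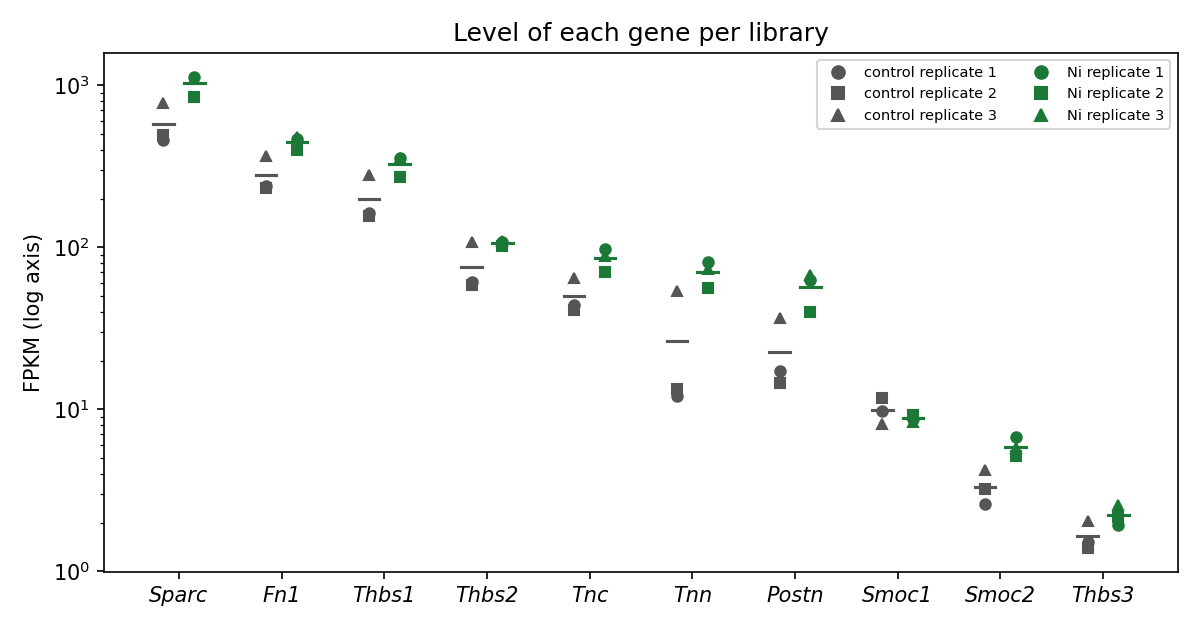
FPKM (log axis) of the 10 genes in each of the 6 libraries, controls in grey and Ni in green, with marker shape for the replicate and a bar for the group mean. Control replicate 3 is the highest control for 9 of the 10 genes, and Smoc1 is the gene whose Ni mean, 8.78, is below its control mean, 9.88.

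Of the 10 genes, 9 were higher and 1, Smoc1, lower in the Ni libraries by fitted log2 fold change, with a median of 0.74 against -0.01 over all tested genes. None passed an adjusted p of 0.05 (quasi-likelihood F-test in edgeR, adjusted by Benjamini-Hochberg over all tested genes), and neither did any other gene, a share of 0%. At an unadjusted p under 0.05, 6 of the 10 were higher (Postn, Sparc, Thbs1, Tnc, Smoc2 and Fn1), where 7.59% of all tested genes were higher at that p, and 0 were lower, where 5.83% were. All 3 Ni libraries lay above all 3 controls for 6 of the 10 (Postn, Sparc, Tnc, Tnn, Smoc2 and Fn1), where 7.97% of all tested genes did so, and below for 0, where 6.71% did. DESeq2's Wald test called 5 of the 10 at an adjusted p of 0.05 (Sparc, Thbs1, Tnc, Smoc2 and Fn1), all higher, against 1.57% of its genes with an adjusted p. By limma on log2 FPKM 0 of the 10 were called, and its share over all genes is not given here. With no filter on low counts edgeR called 6 of the 10 as higher, where 2.55% of all genes were.

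Without control replicate 3, edgeR called 9 of the 10 genes as higher at an adjusted p of 0.05, all but Smoc1, where 8.69% of all tested genes were called higher and 6.49% lower. By unadjusted p under 0.05, Smoc1 was then lower and the other 9 higher, where 12.2% of all tested genes were lower and 15.2% higher. The Ni and control libraries were then apart for all 10, with 9 above and 1 below, beside 22.2% and 20.8% of all tested genes. The median log2 fold change of the 10 genes was then 1.02. Leaving out any other single library left 0 of the 10 called. For all 10 genes control replicate 3 was nearer the Ni mean than the mean of control replicates 1 and 2 on the log2 CPM scale. Leaving out such a library moves the control mean away from the Ni mean. Why control replicate 3 lay there was not tested. Ni replicate 2 was the lowest Ni library for 8 of the 10.

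**Figure D2:**
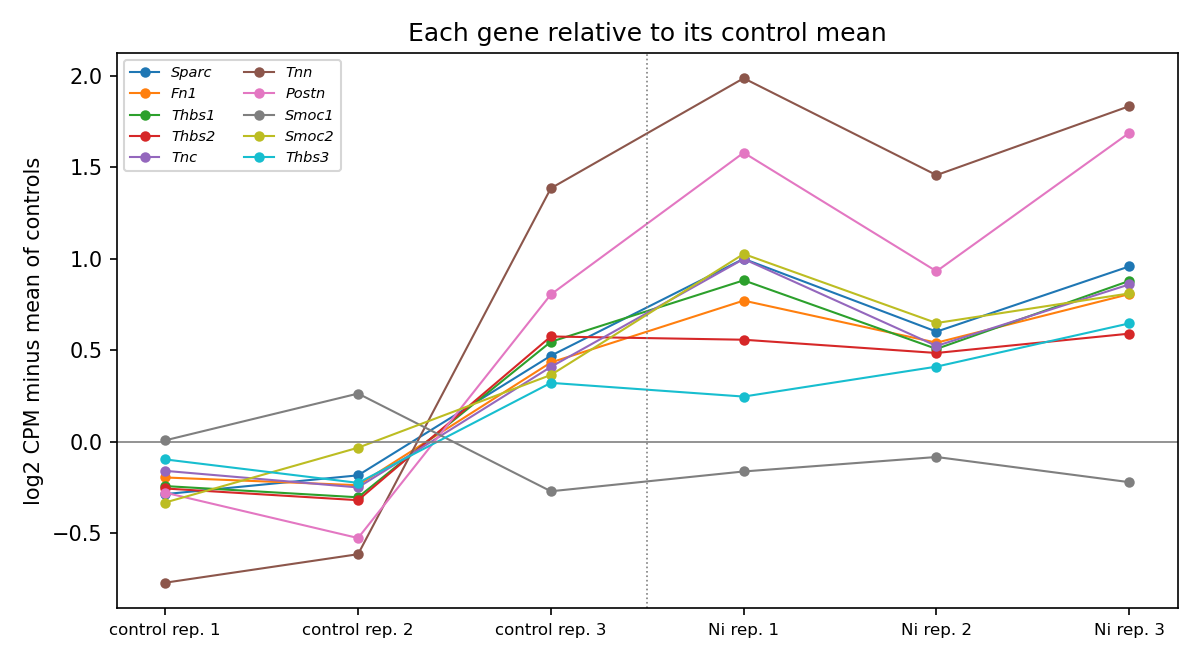
Log2 CPM of each gene minus its mean over the 3 controls, by library; lines only join the points of 1 gene. Tnn and Postn span the widest range, 9 genes sit higher in control replicate 3 than in control replicates 1 and 2, and Smoc1 runs the other way.

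Periostin and tenascin-W had the largest differences of the 10. Postn (ENSMUSG00000027750, GRCm38 chr3:54361109-54391037, plus strand) encodes a fasciclin-domain protein that aids collagen cross-linking. It was at 17.2, 14.5 and 36.4 FPKM in controls (replicates 1, 2 and 3 in turn) and at 62.8, 39.7 and 67.6 FPKM in Ni libraries. The groups did not overlap, although Ni replicate 2 came close to control replicate 3. The fold change was 2.49 (95% interval 1.32 to 4.69; log2 1.31, standard error 0.38, adjusted p = 0.306 in edgeR). Without control replicate 3 the log2 fold change of Postn was 1.84 (adjusted p = 0.00475 in edgeR).

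Tnn (ENSMUSG00000026725, GRCm38 chr1:160085029-160153580, minus strand) encodes tenascin-W, a tenascin of periosteum and developing bone. It was at 12.0, 13.4 and 53.5 FPKM in controls and at 81.7, 56.2 and 73.4 FPKM in Ni libraries. Control replicates 1 and 2 were low, and control replicate 3 lay just under Ni replicate 2. The control SD of 23.6 FPKM was therefore nearly as large as the control mean of 26.3 FPKM. The fold change of 2.67 had an interval from 0.903 to 7.90 (log2 1.42, standard error 0.63, adjusted p = 0.401 in edgeR). Without control replicate 3 the log2 fold change was 2.47 (adjusted p = 3.02e-05 in edgeR).

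The other tenascin, Tnc (ENSMUSG00000028364, GRCm38 chr4:63959785-64047015, minus strand), encodes an anti-adhesive protein of remodelling matrix. It was at 43.8, 41.1 and 64.7 FPKM in controls and at 98.1, 70.0 and 89.0 FPKM in Ni libraries. All Ni libraries were above all controls, with Ni replicate 2 the nearest. Its fold change was 1.71 (95% interval 1.27 to 2.31; log2 0.78, standard error 0.19, adjusted p = 0.249 in edgeR and 0.00461 in DESeq2), and the log2 value was 1.02 without control replicate 3 (adjusted p = 0.000275 in edgeR). Of the 7772 exon bases of Tnc, 2.27% are shared with a noncoding gene on the opposite strand, and no source used here says if the counting used strand. Noncoding genes on the opposite strand also share 3.425% of the exon bases of Thbs1 and 2.499% of those of Fn1.

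Promoters were matched for 6 of the 10 genes in RefSeq (GRCm38.p6), as 8 windows from 250 bases before to 50 bases after a start site. Windows of Postn, Tnn and Thbs3 are shown because these genes lie at the top and the bottom of the range of higher values. The start sites of the windows shown lie within 5 bases of the annotated gene starts. A further window of Postn, with its start site at -1842 bases from the annotated gene start, is not shown. Searched on either strand, and marked in capitals where found, were the TATA box motif TATAAA, the CCAAT box motif CCAAT, the GC box motif GGGCGG, the AP-1 motif TGANTCA, and the RUNX core motif TGTGGT.
Postn, plus strand, chr3:54360857-54361156: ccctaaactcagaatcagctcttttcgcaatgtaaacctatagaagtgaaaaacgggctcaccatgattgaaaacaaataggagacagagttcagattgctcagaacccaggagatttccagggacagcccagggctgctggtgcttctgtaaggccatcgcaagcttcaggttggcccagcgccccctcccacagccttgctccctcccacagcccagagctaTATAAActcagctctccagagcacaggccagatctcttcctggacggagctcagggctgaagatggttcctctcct
Tnn, minus strand, chr1:160153526-160153825: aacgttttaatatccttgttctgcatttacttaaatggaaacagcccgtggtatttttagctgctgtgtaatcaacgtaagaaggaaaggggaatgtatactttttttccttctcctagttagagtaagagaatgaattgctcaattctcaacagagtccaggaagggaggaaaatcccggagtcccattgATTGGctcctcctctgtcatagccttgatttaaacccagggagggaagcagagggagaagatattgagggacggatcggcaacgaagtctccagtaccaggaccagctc
Thbs3, plus strand, chr3:89214930-89215229: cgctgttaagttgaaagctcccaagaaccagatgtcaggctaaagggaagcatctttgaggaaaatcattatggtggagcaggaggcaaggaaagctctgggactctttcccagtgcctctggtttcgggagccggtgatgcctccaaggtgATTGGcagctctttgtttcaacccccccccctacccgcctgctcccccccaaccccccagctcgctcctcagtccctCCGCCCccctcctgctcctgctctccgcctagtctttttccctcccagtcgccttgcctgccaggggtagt
The Postn window shown held TATAAA beginning at position -26 from the start site, a match found in 13.6% of all 32851 windows. The other window of Postn held no TATAAA, but the reverse of CCAAT at 24. The Tnn window held the reverse of CCAAT at -59 and the Thbs3 window at -98, a motif of 37.4% of windows. Thbs3 also held the reverse of GGGCGG (35.7% of windows) at -21. The AP-1 motif (7.81% of windows) and the RUNX core (16.8% of windows) were in none of the 3 shown. Among the windows not shown, those of Tnc held TATAAA and GGGCGG. That of Thbs2 held the reverse of TATAAA, and CCAAT on both strands. The Sparc window, with its start site 3103 bases from the annotated gene start, held the reverse of the RUNX core.

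SPARC was the most abundant of the 10 transcripts in every library. Sparc (ENSMUSG00000018593, GRCm38 chr11:55394500-55423183, minus strand) was at 463, 497 and 780 FPKM in controls and at 1134, 853 and 1100 FPKM in Ni libraries. The groups did not overlap. The fold change was 1.77 (95% interval 1.28 to 2.45; log2 0.82, standard error 0.21, adjusted p = 0.257 in edgeR and 0.00351 in DESeq2), and the log2 value was 1.10 without control replicate 3 (adjusted p = 0.000179 in edgeR).

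Of the SPARC relatives, Smoc2 separated the groups and Smoc1 did not. Smoc2 (ENSMUSG00000023886, GRCm38 chr17:14279506-14404790, plus strand) was at 2.60, 3.20 and 4.21 FPKM in controls and at 6.72, 5.13 and 5.78 FPKM in Ni libraries. It ranked 69 of the 14624 genes by p, the first of the 10, and had the widest gap between the groups, 0.28 on the log2 CPM scale. Its fold change was 1.76 (95% interval 1.34 to 2.31; log2 0.81, standard error 0.18, adjusted p = 0.212 in edgeR and 0.00476 in DESeq2), and the log2 value was 1.02 without control replicate 3 (adjusted p = 0.00056 in edgeR). Smoc1 (ENSMUSG00000021136, GRCm38 chr12:81026808-81186414, plus strand), which encodes a protein able to antagonise BMP signalling, was at 9.83, 11.7 and 8.07 FPKM in controls and at 8.76, 9.19 and 8.40 FPKM in Ni libraries. These groups overlapped, and control replicate 3 was the lowest of the 6 libraries. The log2 fold change of Smoc1 was -0.17 (95% interval -0.48 to 0.13, adjusted p = 0.616 in edgeR). Over the fits that left out 1 library it ranged from -0.29 without control replicate 3 (adjusted p = 0.126 in edgeR) to -0.03 without control replicate 2 (adjusted p = 0.988).

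Smoc2 and Thbs2 lie on the same stretch of chromosome 17, on opposite strands, with 260710 bases from the end of Smoc2 to the start of Thbs2. The annotation places 2 genes between them, neither protein-coding, and both had 0 counts in every library.

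Fibronectin had a smaller fold change than SPARC but a large absolute level. Fn1 (ENSMUSG00000026193, GRCm38 chr1:71585520-71653200, minus strand) was at 239, 232 and 368 FPKM in controls and at 469, 397 and 480 FPKM in Ni libraries. The groups did not overlap, and the Ni SD of 45.3 FPKM was small beside the Ni mean of 449 FPKM. For Fn1 the fold change was 1.60 (95% interval 1.19 to 2.15; log2 0.68, standard error 0.19, adjusted p = 0.283 in edgeR and 0.0124 in DESeq2). Its log2 fold change was 0.93 without control replicate 3 (adjusted p = 0.000179 in edgeR).

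The thrombospondins are multimeric glycoproteins, of which thrombospondin 1 binds CD36, CD47 and integrins. Thbs1 (ENSMUSG00000040152, GRCm38 chr2:118111876-118127133, plus strand) was at 163, 156 and 280 FPKM in controls and at 356, 272 and 355 FPKM in Ni libraries. The groups overlapped by 1 pair, since Ni replicate 2 was just below control replicate 3. For Thbs1 the fold change was 1.64 (95% interval 1.14 to 2.35; log2 0.71, standard error 0.23, adjusted p = 0.308 in edgeR and 0.0338 in DESeq2), and the log2 value was 1.04 without control replicate 3 (adjusted p = 0.000189 in edgeR).

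Thbs2 (ENSMUSG00000023885, GRCm38 chr17:14665500-14694235, minus strand), which encodes a regulator of collagen fibril assembly, was at 61.1, 58.4 and 108 FPKM in controls and at 108, 102 and 110 FPKM in Ni libraries. Control replicate 3 lay within the Ni range, and the 3 Ni libraries had the smallest spread of the 10 genes, with an SD of 0.05 on the log2 CPM scale. Thbs2 had a fold change of 1.40 with an interval from 0.985 to 1.99 (log2 0.48, standard error 0.22, adjusted p = 0.384 in edgeR). Without control replicate 3 its log2 fold change was 0.84 (adjusted p = 0.000115 in edgeR).

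Thbs3 (ENSMUSG00000028047, GRCm38 chr3:89215180-89226837, plus strand), which belongs to the pentameric thrombospondins, was the lowest of the 10. It had 135, 107 and 165 counts in controls and 173, 183 and 225 counts in Ni libraries, or 1.52, 1.39 and 2.03 FPKM against 1.94, 2.16 and 2.57 FPKM. Control replicate 3 lay above Ni replicate 1. The fold change was 1.35 with an interval from 0.999 to 1.82 (log2 0.43, standard error 0.19, adjusted p = 0.372 in edgeR), and the log2 value was 0.62 without control replicate 3 (adjusted p = 0.0461 in edgeR). Of its 4823 exon bases, 318 (6.59%) are shared with Mtx1 on the opposite strand, which had a log2 fold change of -0.14.

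**Figure D3:**
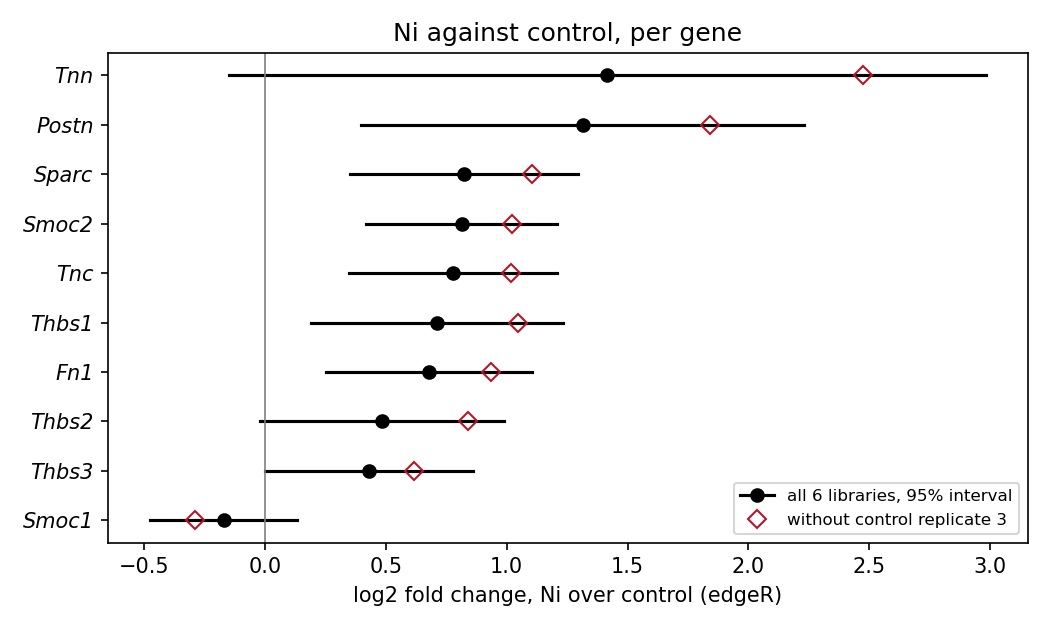
Log2 fold change of Ni over control per gene from edgeR: black points and lines give the estimate and its 95% interval over all 6 libraries, and open red diamonds the estimate without control replicate 3. The intervals of Tnn, Thbs2, Thbs3 and Smoc1 include 0, and every diamond lies farther from 0 than the black point.

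The proportions of the 10 transcripts within a library were compared next. Each gene is part of the sum that it is divided by, which damps changes in the share of an abundant gene such as Sparc. Of the summed FPKM of the 10 genes, Sparc made up between 45.7% and 48.7% in every library, Thbs1 between 15.1% and 16.4%, Thbs2 between 4.64% and 6.36%, and Fn1 between 20.2% and 23.6%, while the sum itself ranged from 1013 in control replicate 1 to 2326 in Ni replicate 1. The share of Tnn was 1.19%, 1.30% and 3.14% in controls and 3.51%, 3.11% and 3.20% in Ni libraries. The share of Smoc1 was 0.971%, 1.14% and 0.473% in controls and 0.377%, 0.509% and 0.367% in Ni libraries. For both genes control replicate 3 sat with the Ni libraries.

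Ratios within a library do not depend on how libraries are scaled, and 8 pairs were compared by an exact two-sided permutation test, which cannot give less than 0.1 here. The log2 ratio of Smoc1 to Smoc2 was 1.58 ± 0.55 (SD, n = 3) in controls and 0.59 ± 0.23 (SD, n = 3) in Ni libraries, without overlap (exact p = 0.1, adjusted p = 0.267 over the 8 pairs). That of Thbs1 to Thbs2 was 1.40 ± 0.03 in controls and 1.61 ± 0.17 in Ni libraries, and that of Fn1 to Sparc -1.04 ± 0.08 and -1.19 ± 0.08; both pairs also showed no overlap (exact p = 0.1 and adjusted p = 0.267 each). In these last pairs the nearest libraries of opposite groups almost touched. Without control replicate 3 the difference between groups for Smoc1 to Smoc2 was -1.31, against -0.99 with it. Tnn to Tnc was -1.87, -1.62 and -0.28 in controls and -0.26, -0.32 and -0.28 in Ni libraries, so that the groups overlapped through control replicate 3 alone; the difference was 0.97 with that library (exact p = 0.3) and 1.46 without it. The difference between groups was 0.55 for Postn to Sparc, 0.32 for Thbs1 to Thbs3, -0.10 for Thbs1 to Sparc and -0.31 for Thbs2 to Sparc, and each of these overlapped (exact p from 0.2 to 0.4). No pair passed an adjusted p of 0.05.

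**Figure D4:**
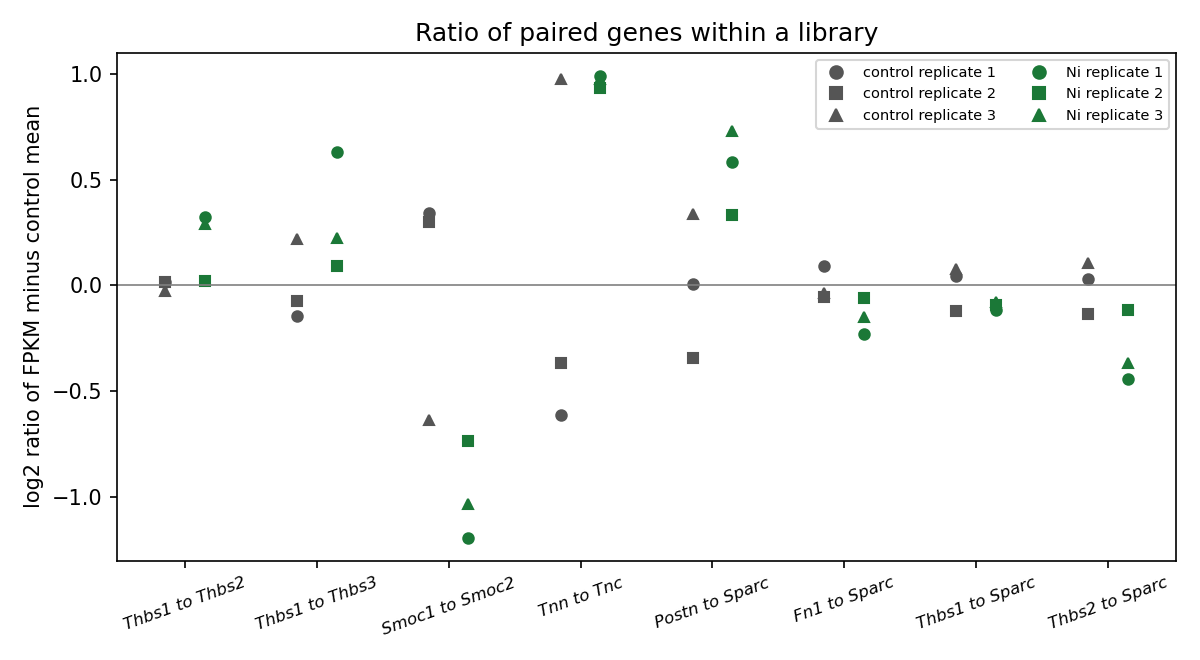
Log2 ratio of FPKM for 8 pairs of genes within each library, minus the control mean of that pair, controls in grey and Ni in green. Smoc1 to Smoc2 is separated by group, with control replicate 3 next to Ni replicate 2, and Tnn to Tnc in control replicate 3 lies among the Ni libraries.

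By the pattern of log2 CPM over the 6 libraries, each centred on its own mean, some of the 10 genes ran closer together than others. Thbs1 and Fn1 differed by a root mean square of 0.08, Sparc and Tnc by 0.08, and Smoc2 and Sparc by 0.10, whereas Tnn was 0.38 from its nearest member, Postn, and Smoc1 0.46 from its nearest, Thbs3. Among 9239 other protein-coding genes averaging at least 10 CPM, the closest to Fn1 was Ltbp1, at 0.03, and the closest to Sparc was Praf2, at 0.03. The closest to Thbs1 was Ccdc80 (0.04), to Thbs2 Itga11 (0.04), to Thbs3 Gstm2 (0.06), to Tnc Clec11a (0.06), to Smoc1 Scfd2 (0.03) and to Smoc2 Cox4i2 (0.07). Postn and Tnn had no gene as close, the nearest being Cgref1 (0.13) and Insc (0.24). These distances were not scaled to each gene's own spread. In controls that spread was widest for Tnn and Postn of the 10 genes (SD 1.20 and 0.71 on the log2 CPM scale). The median profile of the 10 genes was nearest to P4ha1, at 0.03.

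Relatives of the 10 genes were read alongside them. Of 18 other matricellular and adhesive matrix genes, 14 were tested, 12 had a positive log2 fold change and the median was 0.21; whether this differs from the median of the 10 genes was not tested. At an unadjusted p under 0.05, 5 were higher and 0 lower, where 7.59% of all tested genes were higher and 5.83% lower. None of the 14 passed an adjusted p of 0.05. Comp, the cartilage oligomeric thrombospondin, averaged 37.5 FPKM in controls and 63.4 FPKM in Ni libraries (log2 fold change 0.75, adjusted p = 0.293 in edgeR). Ccdc80 had 0.66 and Igfbp7, an insulin-like growth factor binding protein, 0.31. The other 2, Spock2 at 1.01 and Thbs4 at 2.09, were named after their values were seen and were low, at 0.212 and 0.114 FPKM in controls. Tgfbi, the closest relative of periostin, was at 37.3 and 37.4 FPKM in the 2 groups, with a log2 fold change of 0.00; it was likewise named after its values were seen.

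Receptors and assembly factors of these proteins numbered 26, all tested, with 18 positive and a median log2 fold change of 0.18. At an unadjusted p under 0.05, 4 were higher and 2 lower, where 7.59% of all tested genes were higher and 5.83% lower. None of the 26 passed the adjusted threshold. The lowest p values belonged to Ddr2, a collagen receptor kinase (log2 fold change 0.58), Fap, a fibroblast surface protease (0.78), and Bmp1, the protease that trims procollagens (0.55); the fourth higher gene was Sdc2 (0.39). Those lower were Cd36 (-0.54), a thrombospondin receptor that macrophages also carry, and Itga9 (-0.34), a subunit of a tenascin-C receptor. The fibronectin receptor subunits Itga5 and Itgb1 had log2 fold changes of 0.28 and 0.21 (unadjusted p = 0.162 and 0.183 in edgeR's quasi-likelihood test). Sdc2, Cd36, Itga9, Itga5 and Itgb1 were named after their values were seen.

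Of 18 genes of latent TGF-β, its binding proteins, receptors and response, 11 were positive, with a median log2 fold change of 0.18. At an unadjusted p under 0.05, 3 of the 18 were higher and 0 lower, where 7.59% of all tested genes were higher and 5.83% lower. Of the 3, Ltbp1, which tethers latent TGF-β to the matrix, was at 5.92 and 9.24 FPKM in controls and Ni libraries (log2 fold change 0.64, adjusted p = 0.273 in edgeR). Tgfb3, also of the 3, had a log2 fold change of 0.39.

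Marker genes of other cell types were measured beside these values. All 14 osteoblast markers were higher at an unadjusted p under 0.05, with a median log2 fold change of 1.10, among them Sp7 (0.88), Alpl (1.07), Col1a1 (1.13) and Col1a2 (0.97). The 16 stromal markers had a median of 0.31, with 5 higher (Dcn at 0.80 and Lum at 0.95 among them) and 1, Cxcl12, lower at -0.47. The 20 macrophage markers had a median of -0.15, with 1 higher and 5 lower, Itgam (-0.40), Fcer1g (-0.45) and Ptprc (-0.36) among them. The 8 smooth muscle and pericyte markers had a median of 0.55, with Cspg4 at 1.21 higher at an unadjusted p under 0.05, Cnn1 at 0.73 and Myh11 at 0.85. Endothelial markers (8) had a median of -0.19, with Pecam1 lower at -0.65, Emcn at 0.58 and Tek at -0.66. Of the adipocyte markers 6 of 8 were tested, with a median of 0.14, Lpl lower at -0.49, Fabp4 at 0.43 and Plin1 at 1.52. Of the neutrophil and megakaryocyte markers 4 of 10 were tested, with a median of -0.17, S100a9 and Ltf had 0 counts in every library, and Gp1ba was at -0.72, S100a8 at -0.34 and Pf4 at 0.22. With control replicate 3 left out, the median log2 fold changes were 0.34 for the relatives, 0.17 for receptors and assembly factors, and 0.19 for the TGF-β genes. Of these lists 8 of 14, 9 of 26 and 7 of 18 were called higher at an adjusted p of 0.05 in edgeR, and 0, 2 and 1 lower. In that fit 8.69% of all tested genes were called higher and 6.49% lower. The marker medians were then 1.44 for osteoblast, 0.49 for stromal, -0.17 for macrophage, 1.03 for smooth muscle and pericyte, -0.21 for endothelial, 0.20 for adipocyte, and 0.26 for neutrophil and megakaryocyte genes. The part of cell mixture in the differences of the 10 genes was not tested.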

How the data were processed

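The authors deposited whole-number counts of reads per gene without normalization, FPKM values and a gene table on GRCm38. The deposited FPKM equal the counts divided by gene length and by 1 factor per library, which lay between 0.991 and 1.02 times the library total. The aligner, counter, annotation release and strand setting are not given in the sources used here; gene spans and lengths of the 10 genes are those of GENCODE M21. Genes were filtered by edgeR's filterByExpr, normalized by TMM and tested over all genes with the quasi-likelihood test (edgeR 4.0.16, robust, R 4.3.3) and Benjamini-Hochberg adjustment; log2 CPM used a prior count of 2. DESeq2 1.42.0 and limma 3.58.1 on log2(FPKM + 1) and log2(FPKM + 0.1) were alternatives, as were other scalings and filters, the replicate number as a block and leaving out each library. Standard errors and 95% intervals come from the unshrunk coefficient and the F statistic; the test was checked on simulated counts. Permutation tests used SciPy 1.17.1. Counts of libraries within a group differed by more than sampling noise. Named were the 10 genes, the 3 genes of smallest p in each other list, fixed markers and the nearest gene by profile. Some genes this rule names are not reported here. The genes and lists were chosen with earlier results of these data known.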

Additional observations from a re-analysis of the deposited data

How the results depend on the processing

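No log2 fold change of the 10 genes changed sign under the 17 alternatives: of 170 refitted values, 140 stayed on their side of an adjusted p of 0.05 and 30 passed it where edgeR over all libraries did not. The number of the 10 genes called at an adjusted p of 0.05, 0 in edgeR, was 5 by the DESeq2 Wald test, 5 when DESeq2 was limited to genes that passed the edgeR filter (1.52% of its genes called higher), 6 with no filter on low counts (2.55% of all genes called higher) and 5 with the replicate block (1.55%). It ranged from 0 to 9 over the fits that left out 1 library, the highest without control replicate 3, where 8.69% of all genes were called higher, against at most 0.08% in the other 5. In the same fits the number at an unadjusted p under 0.05 ranged from 6 to 10 (all genes, higher: 4% to 15.2%), that of genes without overlap from 6 to 10 (all genes, above: 10.2% to 22.2%), and the median log2 fold change from 0.61 to 1.02. The cause of these differences was not tested. Over its alternatives the adjusted p of Sparc ranged from 8.52e-08 to 0.815 and that of Tnn from 3.02e-05 to 0.845. Deviations from the group means correlated at 0.01, 0.26 and 0.14 between same-numbered libraries. Libraries of different numbers were not compared, so whether the shared number marks a pairing was not tested. With the replicate block, Postn was at 1.40 (adjusted p = 0.0212 in edgeR); Sparc, Thbs1, Tnc and Fn1 were also called and Smoc2 was not. All 56 ratios refitted kept their direction; leaving out 1 library moved Smoc1 to Smoc2 from -1.31 to -0.82. Leaving control replicate 3 out of the other gene lists, chosen after seeing the data, turned the median of the neutrophil and megakaryocyte markers from -0.17 to 0.26. Other scalings left the counts within 1.5 times. With 3 libraries a group, smaller differences than the intervals span could not be resolved.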
